A study of Mus musculus with 15 samples.

Results

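The comparison described here sets the irradiated mouse submandibular gland that received a transfer of the Sonic hedgehog gene against the untreated gland, across all genes. The labels name 3 IR+Shh libraries and 3 NT libraries, 6 of the 15 in the series, and every gene tested in the common fit is a member. The gland is the adult male submandibular gland (SMG), a major salivary gland, of wild-type C57BL/6 mice. NT glands had no treatment. IR, IR+GFP and IR+Shh glands were collected 7 days after local irradiation, and the IR+GFP and IR+Shh glands had also received an intra-SMG transfer of green fluorescent protein or of Shh. Another irradiated group, IR+Gli1, entered the fit for its estimate of spread and is not compared here. The labels give neither the radiation dose, nor the vector, its promoter or the cells it reaches, nor the species of the transferred gene, nor the hour at which the glands were taken. The question was how far the Shh-treated irradiated gland stood from the untreated state 7 days after irradiation, and which genes had returned to the untreated level. IR and IR+GFP share the NT controls with IR+Shh, so their values are given beside those of IR+Shh for the lists and genes the results turn on, and the direct comparisons of IR+Shh with IR and with IR+GFP are the tests of any difference.

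Sonic hedgehog is a secreted ligand. It binds Patched receptors and so releases Smoothened, which lets the GLI transcription factors act. Gli1, Ptch1 and Hhip are classical targets, so their RNA levels are widely used as readouts of the pathway. Irradiation breaks DNA and activates p53, whose targets include the cell cycle inhibitor Cdkn1a. In male mice the granular convoluted tubules of this gland store kallikreins and growth factors such as EGF under androgen control.

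Depth was 18205941 to 41064723 reads assigned to genes per library over the series, and 18205941 to 37371064 in the 6 libraries compared. IR+Shh libraries 1 and 3 differed by less than the sampling noise (mean chi-square per gene 0.337, against 22 to 28.8 for the other IR+Shh pairs), as did NT libraries 2 and 3 (0.261, against 208 to 223). Each such pair was averaged and counted as 1 sample, so n was 2 combined samples per group, called IR+Shh 1-3, IR+Shh 2, NT 2-3 and NT 1. The labels do not say that the libraries come from separate animals. The p-values rest on a spread estimated over the 10 combined samples of all 5 groups, and measure no spread beyond those samples. NT 2-3 stood apart by sublingual gland genes. The 8 such genes listed, 7 of them tested, summed to 34607 CPM (reads per 1000000 gene reads after scaling) in NT 2-3, 5.83 in NT 1 and 6.24 and 5.54 in the IR+Shh samples. For that reason Dcpp1, Dcpp2, Dcpp3, Muc19 and Smgc were set aside from every count, and results are also given without NT 2-3. Granular tubule genes, which define the male gland, made up 351738 and 310868 CPM in the NT samples, which matches the tissue label.

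Measured over all genes, the IR+Shh gland was about as far from NT as the irradiated gland without transfer. With the 5 sublingual genes removed, the root mean square log2 difference between the 2 NT samples was 0.568. That value is no clean measure of the spread between untreated glands, since other genes still set NT 2-3 apart. Bpifa2, for one, was at 1600 CPM in NT 2-3 and 0.152 in NT 1. The 4 pairs of an IR+Shh and an NT sample lay between 0.510 and 0.672, with a mean of 0.590. The 4 pairs of an IR and an NT sample lay between 0.494 and 0.651, with a mean of 0.571, and those of IR+GFP and NT between 0.511 and 0.882. IR+Shh and IR samples were closer to each other than either was to NT, at 0.407 to 0.449, a little above the distance within IR+Shh (0.383) or within IR (0.379). The distance to NT depended on which NT sample was taken, since the pairs with NT 1 were the smallest ones for IR+Shh and IR. These were 0.510 and 0.520 for IR+Shh and 0.494 and 0.501 for IR, above the distances within IR+Shh or within IR. With 2 samples a group an exact permutation test cannot go below a two-sided p of 0.333, so such a test of these distances could not pass the threshold.

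**Figure D1:**
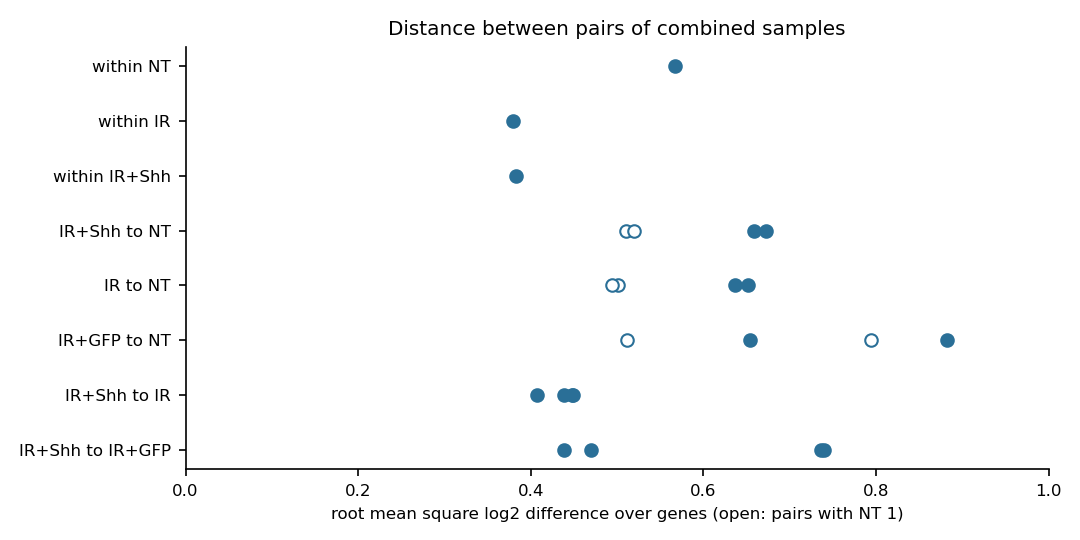
Distance between pairs of combined samples, as the root mean square log2 difference over all genes tested without the 5 sublingual genes (x axis); each point is 1 pair, and open points are pairs with NT 1. The IR+Shh to NT pairs span 0.510 to 0.672, and those with NT 1 are at 0.510 and 0.520. The 2 NT samples, of which NT 2-3 carried sublingual genes, are 0.568 apart. The IR+Shh to IR pairs lie between 0.407 and 0.449.

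Gene by gene, 322 of 14299 genes differed between IR+Shh and NT (edgeR quasi-likelihood test, Benjamini-Hochberg adjusted p under 0.05). Of these, 194 were higher in IR+Shh (1.36% of the genes tested) and 128 were lower (0.895%), and 305 of the 322 were protein coding. Rises were the larger changes: 89 of the higher genes and 23 of the lower genes changed by more than 2-fold. The median log2 fold change over all genes was -0.0028. Both IR+Shh samples lay above both NT samples for 3789 genes (26.5%) and below both for 3877 (27.1%), which is the background for any count of genes whose groups did not overlap. The split rests on the scaling: with total-count scaling, which moves the median of all genes to 0.10, 199 genes were higher and 35 lower. The number of calls rests on single samples. It moved widely when 1 of the 4 samples was left out. All 322 genes kept their direction in each of these fits. They were selected by passing in the same samples, so a kept direction is not separate support.

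The same test called 74 genes higher and 24 lower in IR against NT, and 89 higher and 17 lower in IR+GFP against NT. In the direct comparison of IR+Shh with IR it called 0 genes, with 742 at an unadjusted p under 0.05 and a lowest adjusted p of 0.528. DESeq2 called 28 genes in that comparison (24 higher and 4 lower) and limma-voom 0. Against IR+GFP the edgeR test again called 0 genes, with 873 at an unadjusted p under 0.05 and a lowest adjusted p of 0.179. There DESeq2 called 22 higher and 12 lower and limma-voom 0. Most of the DESeq2 calls of lower genes, such as Gm42418 (-41.3) and Gm26905 (-25.0), had log2 values too extreme to be read as fold changes.

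**Figure D2:**
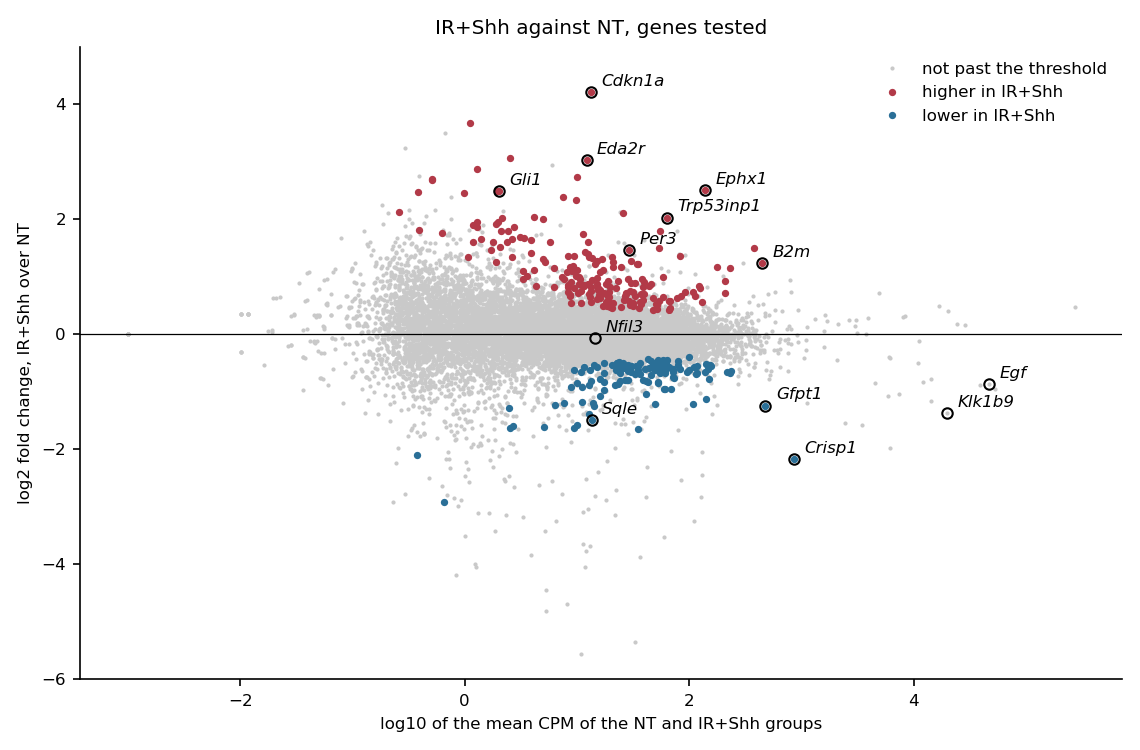
Log2 fold change of IR+Shh over NT (y axis) against the log10 of the mean CPM of both groups (x axis), 1 point per gene tested; red and blue points passed the threshold as higher or lower in IR+Shh, and 7 genes lie outside the y axis. Cdkn1a and Eda2r are the highest of the labelled genes, Gli1 is a low-level gene with a log2 fold change of 2.49, Nfil3 lies at -0.07, and the abundant tubule genes Egf and Klk1b9 lie below 0 without passing the threshold.

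Gli1, a GLI transcription factor and target of the pathway (chromosome 10, 127329882 to 127341974, GRCm38), rose in IR+Shh, where each sample was above every NT, IR and IR+GFP sample. It had 77, 115 and 48 reads in the IR+Shh libraries, against 20, 17 and 10 in NT, 22, 13 and 13 in IR and 25, 12 and 9 in IR+GFP. In CPM this was 2.73 and 4.24 in the IR+Shh samples and 0.513 and 0.607 in the NT samples, and the groups did not overlap. The means were 3.49 ± 1.07 and 0.560 ± 0.067 (SD, n = 2), and the fitted fold was 5.63 (log2 2.49 ± 0.33 SE, edgeR adjusted p = 0.00899). Against IR the log2 difference was 2.30 ± 0.33 (adjusted p = 0.528, DESeq2 adjusted p = 0.0111), and against IR+GFP it was 2.22 ± 0.33 (adjusted p = 0.354, DESeq2 adjusted p = 0.0194). The call against NT did not hold without NT 2-3 (adjusted p = 0.0628), IR+Shh 1-3 (0.0518) or IR+Shh 2 (0.108), and held without NT 1 (0.0145).

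The ligand gene itself gave no reads. Shh lies on chromosome 5 at 28456815 to 28467256, and 0 reads were assigned to it in any of the 15 libraries. At 3 reads, the limit that such a count allows is 0.130 CPM in IR+Shh 1-3 and 0.111 CPM in IR+Shh 2. These counts say nothing about a transferred gene whose sequence is not in the gene models. Ihh and Dhh, which encode the other Hedgehog ligands, were too low to test.

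Ptch1, the main receptor and a target as well, was at 11.3 and 12.7 CPM in IR+Shh and 7.29 and 10.02 CPM in NT (log2 0.47 ± 0.20, adjusted p = 0.226), and IR reached a mean of 11.6 CPM. Hhip, a target that encodes a ligand-binding inhibitor, was too low to test.

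The rest of the pathway was near its NT level. Of the 19 Hedgehog target genes listed, 11 could be tested, 1 rose (Gli1), 0 fell, and their median log2 fold change was 0.31. None of 14 testable receptors and signal transducers passed, with a median of 0.18. The signal transducer Smo differed by -0.11, the co-receptor Boc by 0.14 and the GLI inhibitor Sufu by 0.19. Gli2 was at 0.78 and Gli3, mostly a repressor, at -1.07 (adjusted p = 0.261 and 0.155). Cxcl14 and Hsd11b1, other listed targets, were at 0.43 and 0.14.

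Nfil3 (chromosome 13, 52967209 to 52981073) encodes a transcription factor that represses genes with D-box sites and acts in immune cells and in the circadian clock. It passed the threshold in IR against NT (log2 -1.39) and lay at the NT level in IR+Shh. It was at 17.3 and 12.4 CPM in the NT samples and at 11.7 and 16.6 in IR+Shh, so the groups overlapped (log2 -0.07 ± 0.21, adjusted p = 0.903). In IR it was at 5.50 and 5.74 CPM and in IR+GFP at 6.30 and 4.80, below every NT and IR+Shh sample. The log2 difference of IR+Shh from IR was 1.32 ± 0.22 (edgeR adjusted p = 0.580, DESeq2 adjusted p = 0.00165), and from IR+GFP 1.33 ± 0.22 (0.439 and 0.000799).

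Other genes that passed in IR against NT and not in IR+Shh against NT were named by the same rule. Gal3st3, which encodes a galactose sulfotransferase, was at 2.81 and 2.66 CPM in IR+Shh and 2.53 and 2.46 in NT, against a mean of 5.50 in IR. The difference of IR+Shh from IR was -0.99 ± 0.19 on the log2 scale (edgeR adjusted p = 0.580, DESeq2 adjusted p = 0.186). Ascl3, a transcription factor of ionocytes and duct progenitors, had a log2 difference from NT of 0.49 in IR+Shh and 0.89 in IR. Dnah11, a ciliary dynein gene, had 0.79 in IR+Shh and 1.57 in IR, while its IR+GFP mean of 11.0 CPM was close to the 12 and 10.4 CPM of IR+Shh. Psmd14 and Tmem123 missed the threshold in IR+Shh by a small margin (adjusted p = 0.0502 for both). Complement gene C1qb, named after its values were seen, was also near its NT level: 29.8 and 32.8 CPM in IR+Shh, 27.9 and 32.0 in NT, and means of 17.4 in IR and 18.0 in IR+GFP. Its difference from IR was 0.85 ± 0.16 (adjusted p = 0.580, DESeq2 adjusted p = 0.00927), and from IR+GFP 0.81 ± 0.16 (0.439 and 0.0182).

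**Figure D3:**
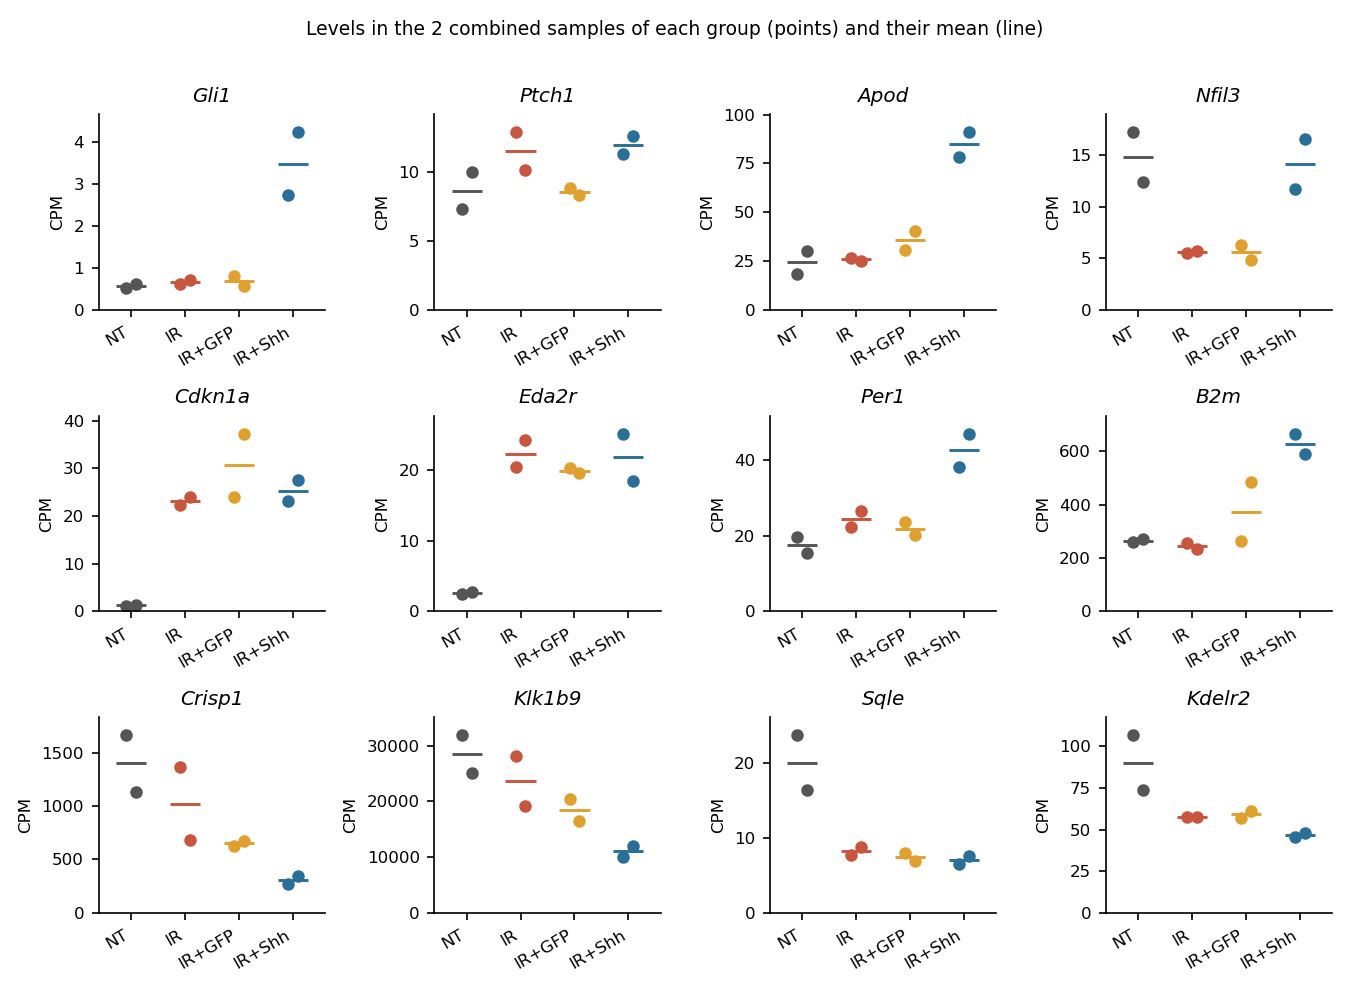
CPM (y axes, each from 0) of 12 genes in the 2 combined samples of NT, IR, IR+GFP and IR+Shh (points) with the mean of each group (line). Gli1 and Apod are highest in IR+Shh, the IR+Shh and NT samples of Nfil3 overlap, Cdkn1a and Eda2r lie with the other irradiated groups, and Crisp1 and Klk1b9 are lowest in IR+Shh.

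The p53 targets had not returned to the NT level. Cdkn1a (chromosome 17, 29090976 to 29100727) was at 23.1 and 27.5 CPM in IR+Shh and 1.17 and 1.4 in NT, an 18.6-fold rise (log2 4.22 ± 0.38, edgeR adjusted p = 0.00645). Its level in IR, 22.3 and 24.0 CPM, fell in or next to the IR+Shh range, and the difference of IR+Shh from IR was 0.13 on the log2 scale, with an interval of 2 SE from -0.48 to 0.74. Without NT 2-3 the adjusted p of Cdkn1a against NT was 0.0572.

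Of 32 p53 targets tested, 14 rose and 0 fell, against 1.36% and 0.895% of all genes. The median of the list was 0.79, and both IR+Shh samples lay above both NT samples for 27 genes, against 26.5% of all genes. Eda2r, whose product binds ectodysplasin, rose 8.16-fold (log2 3.03 ± 0.18, adjusted p = 0.000141), from 2.42 and 2.76 CPM to 25.1 and 18.4. Phlda3, an inhibitor of AKT, rose 4.34-fold, the p53 cofactor gene Trp53inp1 4.09-fold and the cyclin gene Ccng1 2.24-fold. Bax, which permeabilises mitochondria in apoptosis, rose 2.39-fold from 11.7 and 13.1 CPM to 29.3 and 30.1. Psrc1, a spindle protein gene with 4, 3 and 1 reads in NT, had 67 and 51 in IR+Shh libraries 1 and 2 (log2 3.67 ± 0.45, adjusted p = 0.00767). The translesion polymerase gene Polk, the stress sensor gene Sesn2 and the death receptor gene Tnfrsf10b rose by 1.12, 1.33 and 1.52 on the log2 scale. Mdm2, which encodes the ligase that removes p53, was at 0.40 (adjusted p = 0.0643), and Perp at -0.03. With single samples left out the count of higher targets was 12 without NT 1, 8 without NT 2-3, 4 without IR+Shh 1-3 and 5 without IR+Shh 2.

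The median of the p53 targets was 0.94 in IR against NT and 0.95 in IR+GFP against NT, where 15 and 16 passed. In the direct comparison of IR+Shh with IR 0 of the 32 passed, and the median difference was -0.07. At an unadjusted p under 0.05, 0 targets were higher in IR+Shh than in IR and 3 were lower (Zmat3, Gdf15 and Dcxr), beside 2.98% and 2.21% of all genes. Zmat3, which encodes an RNA-binding protein, was at 23.9 and 23.2 CPM in IR+Shh, 13.2 and 12.6 in NT and a mean of 27.8 in IR. Gdf15, a stress cytokine gene, was at 14.2 and 7.2 CPM in IR+Shh, 2.05 and 0.668 in NT and a mean of 26.3 in IR (adjusted p = 0.0557 against NT). Genes of DNA repair (35 tested, median 0.03) and of the cell cycle (34 tested, median 0.04) had 0 calls either way against NT. The cell cycle median was -0.14 in IR and -0.39 in IR+GFP. At an unadjusted p under 0.05, 9 of the 34 were higher and 0 lower in IR+Shh than in IR+GFP, beside 3.41% and 2.70% of all genes. Against IR, 1 was higher and 0 lower.

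Among the 12 largest rises, the log2 difference of IR+Shh from IR was 2.30 for Gli1 and lay between -0.39 and 0.48 for the other 11. Ephx1, which encodes an epoxide hydrolase of the endoplasmic reticulum, rose from 42.6 and 40.7 to 257 and 218 CPM, 5.69-fold (log2 2.51 ± 0.13, edgeR adjusted p = 7.69e-05, the lowest of all genes). Ddit4l, an inhibitor of mTOR signalling, rose 8.36-fold, the DNA damage gene Ddias 7.35-fold, the dynein gene Dnah10 6.69-fold and the early response gene Egr1 5.26-fold. In all, 7 genes passed in every fit that left out 1 of the 4 samples, all higher in IR+Shh: Eda2r, Ephx1, Tmem44, Phlda3, Trp53inp1, Pik3ip1 and Exoc4.

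**Figure D4:**
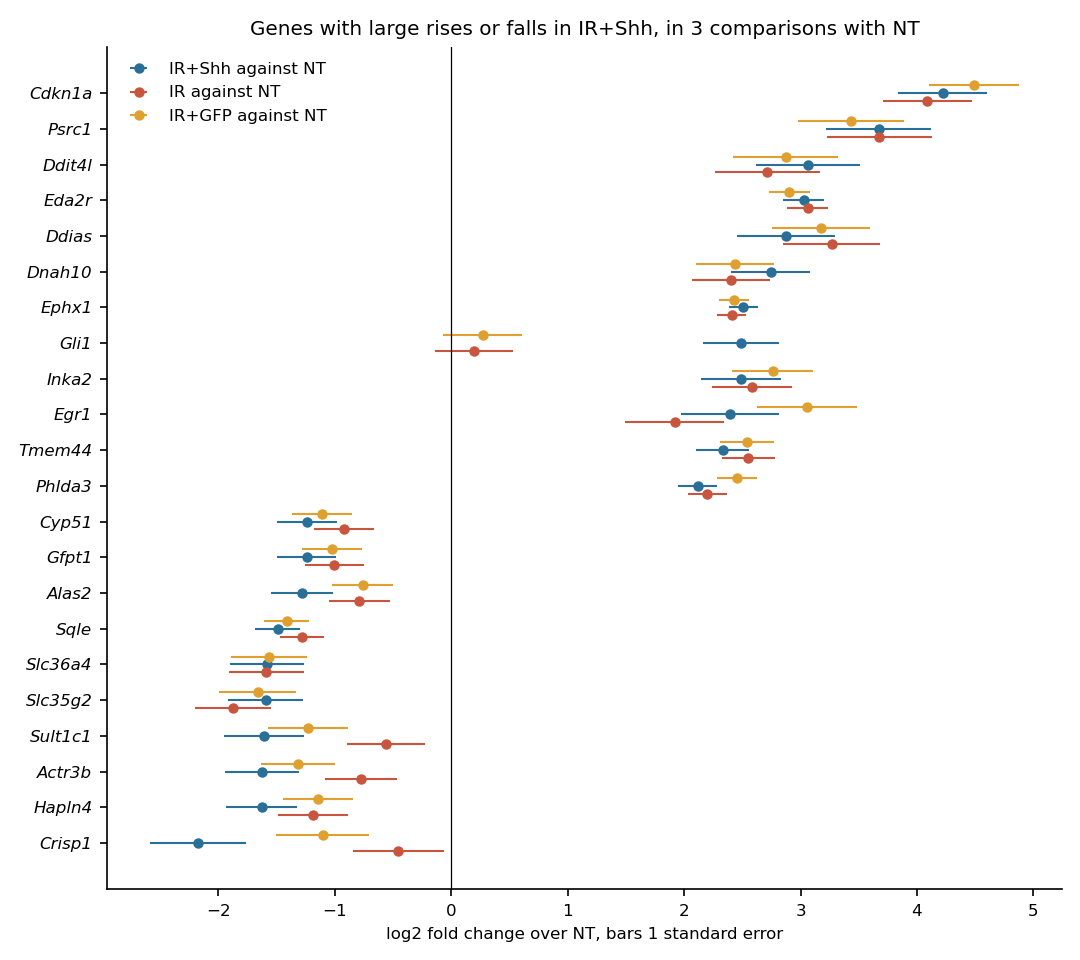
Log2 fold change over NT (x axis) of the 12 largest rises and 10 of the 12 largest falls of IR+Shh against NT, for IR+Shh (blue), IR (red) and IR+GFP (orange); points are fitted values and bars 1 SE, and all 3 comparisons share the NT samples. Gli1 is at 2.49 in IR+Shh and near 0 in the other groups, and Crisp1 is at -2.17 in IR+Shh and -0.45 in IR.

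Of the lists for cells of this gland (acinar, duct, tubule and basal), the granular convoluted tubule genes had the lowest median in IR+Shh against NT. Of 20 tested, both IR+Shh samples lay below both NT samples for 18, against 27.1% of all genes, and the median was -0.998. Their summed level was 160201 and 188902 CPM in IR+Shh, against 351738 and 310868 in NT, 350931 and 256224 in IR and 269621 and 243053 in IR+GFP. The list median was -0.20 in IR against NT and -0.38 in IR+GFP against NT. In these bulk samples fewer tubule cells and less RNA per tubule cell cannot be told apart.

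One member passed. Crisp1, a cysteine-rich secretory protein gene on chromosome 17, was at 272 and 348 CPM in IR+Shh and 1663 and 1135 in NT, and fell 4.51-fold (log2 -2.17 ± 0.41, edgeR adjusted p = 0.0431). In IR it was at 1364 and 678 CPM, above both IR+Shh samples. The difference of IR+Shh from IR was -1.72 ± 0.40 (edgeR adjusted p = 0.735, DESeq2 adjusted p = 0.0806). IR+GFP was at 628 and 671 CPM, and the difference of IR+Shh from it was -1.07 ± 0.40 (0.806 and 0.981). The related Crisp3 was at 26718 and 27869 CPM in IR+Shh against 47527 and 52782 in NT (-0.88, adjusted p = 0.0798). Egf was at 29655 and 36669 CPM in IR+Shh and 58958 and 61528 in NT (-0.86, adjusted p = 0.296). The kallikreins Klk1b8, Klk1b9 and Klk1b26, proteases of the tubule granules, were at -1.98, -1.37 and -0.96 (adjusted p = 0.0679, 0.0803 and 0.122). Klk1, the true tissue kallikrein, was at 0.71 in the opposite direction. Single Klk1b values are uncertain, since these genes are near copies of each other and a read with several alignments was counted for none of them.

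At an unadjusted p under 0.05, 11 of the 20 tubule genes were lower and 1 was higher in IR+Shh than in IR, beside 2.21% and 2.98% of all genes. In the same way 2 were lower than in IR+GFP, beside 2.70% of all genes. The number that passed against NT varied with the tool and the samples in the fit: DESeq2 called 9 lower, the fit of NT and IR+Shh alone 6, limma-voom 0, and the fits without NT 2-3, IR+Shh 1-3 or IR+Shh 2 called 0. The most abundant gene, Mucl2, took 16.6 to 23.8% of the reads in NT libraries and 28.4 to 32.6% in IR+Shh libraries (log2 0.48 ± 0.34, adjusted p = 0.470), and its part in the tubule values was not tested. Acinar genes, of the cells that secrete the watery saliva, had 0 calls in 22 tested and a median of 0.13. The chloride uptake transporter Slc12a2 was at 1144 and 863 CPM in IR+Shh and 581 and 624 in NT (0.74, adjusted p = 0.0667), and its log2 difference from NT was 0.75 in IR. Of 21 duct and ionocyte genes 1 rose, the iodide transporter gene Slc5a5 (log2 1.01, adjusted p = 0.0494), and the median was 0.18.

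Cholesterol synthesis genes, which cells regulate together through SREBP2, were lower in IR+Shh as a list. All 20 tested were below 0, and both IR+Shh samples lay below both NT samples for 19, against 27.1% of all genes. Of the 20, 5 fell and 0 rose, beside 0.895% and 1.36% of all genes. Sqle, which makes squalene epoxide, was at 6.58 and 7.6 CPM against 23.8 and 16.5 in NT (log2 -1.49 ± 0.19, edgeR adjusted p = 0.00849). Cyp51, Msmo1 and Fdps, enzymes before and after the sterol ring is formed, fell by 1.24, 1.07 and 0.88 on the log2 scale. The list median was -0.71, beside -0.66 in IR and -0.71 in IR+GFP. The median direct difference of IR+Shh from IR was -0.30, and 3 members were lower at an unadjusted p under 0.05, beside 2.21% of all genes. Without NT 1, 7 fell, without NT 2-3, 1 fell, and without either IR+Shh sample 0 passed.

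Genes of the secretory route were lower too. These families were gathered by symbol after the values were seen, so their counts are a description of genes chosen with the pattern in view. Of 62 genes of vesicle coats and transport, 16 fell and 0 rose, beside 0.895% and 1.36% of all genes, with a median of -0.45. Both IR+Shh samples lay below both NT samples for 48 of them, against 27.1% of all genes. Sar1b, the GTPase that starts COPII vesicles at the endoplasmic reticulum, was at 55.3 and 54.1 CPM against 93.8 and 92.4 in NT (log2 -0.77 ± 0.10, edgeR adjusted p = 0.0094). Kdelr2, which returns resident proteins to the endoplasmic reticulum, fell by 0.95. The medians in IR and IR+GFP were -0.28 and -0.27, and the median difference of IR+Shh from IR was -0.13. With total-count scaling 2 of the 62 passed, and without NT 1, NT 2-3, IR+Shh 1-3 or IR+Shh 2 the counts were 29, 2, 0 and 0.

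Of 51 genes of protein translocation and N-glycosylation 6 fell, of 28 nucleotide sugar genes 5 fell, of 12 tubulin genes 4 fell, and of 38 proteasome subunit genes 2 fell, with 0 rises in each, beside the same 0.895% and 1.36%. Their medians were -0.31, -0.45, -0.44 and -0.27. In IR against NT these medians were -0.25, -0.27, -0.29 and -0.32, and in IR+GFP against NT -0.20, -0.31, -0.28 and -0.28. Gmds, the first enzyme of GDP-fucose synthesis, fell from 60.1 and 50.1 CPM to 26.9 and 26.7 (log2 -1.04 ± 0.12, adjusted p = 0.00749). Gfpt1, which controls entry into the hexosamine pathway, fell by 1.24. It was higher in NT 2-3 (846 CPM), the sample with sublingual genes, than in NT 1 (494), and IR+Shh, at 276 and 291 CPM, was below both. Of 26 genes of endoplasmic reticulum stress and secretion, a list not gathered in this way, 2 fell: Ostc, an oligosaccharyltransferase subunit gene (-0.94), and the chaperone gene Dnajb9 (-0.74). The median of that list was -0.51, beside -0.48 in IR, where 3 fell, and -0.34 in IR+GFP, where 1 fell.

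**Figure D5:**
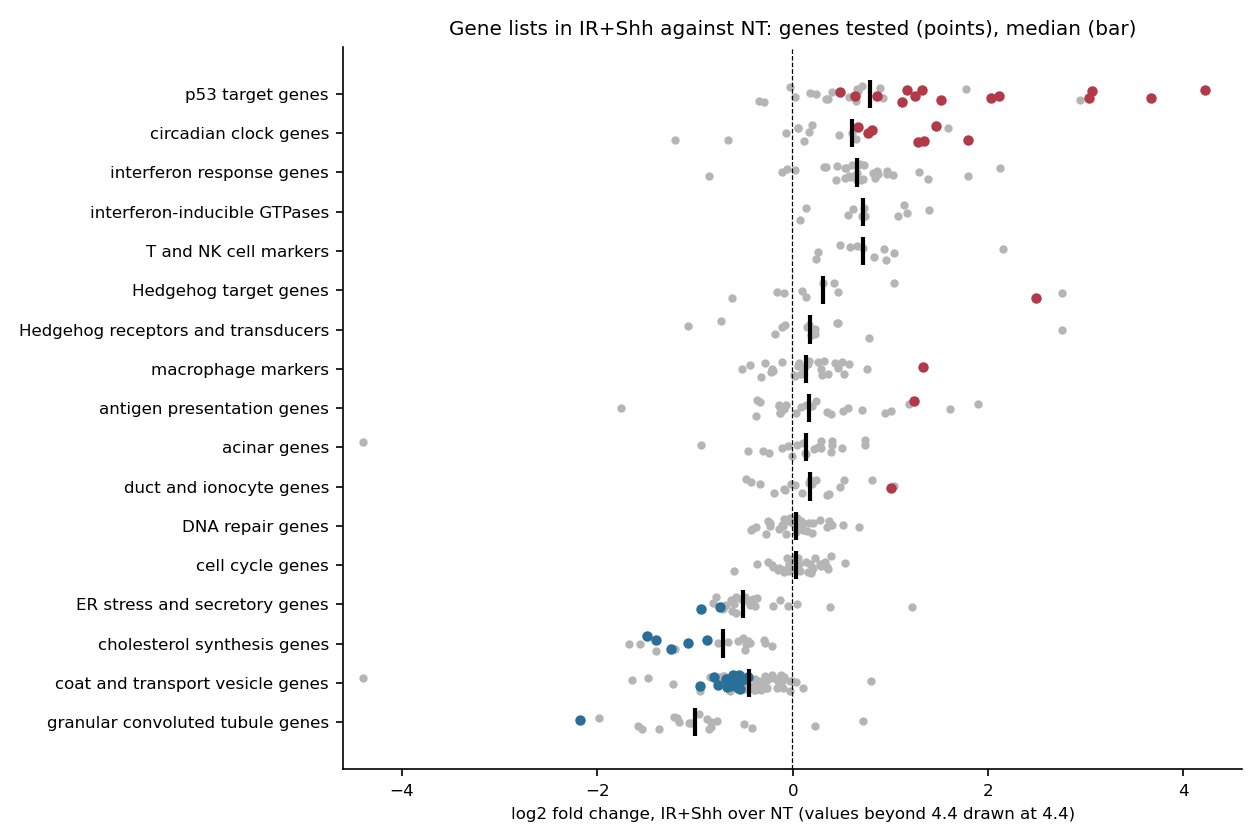
Log2 fold change of IR+Shh over NT (x axis) for every tested gene of 17 gene lists (points), with the median of each list (bar); red and blue points passed the threshold, and values beyond 4.4 are drawn at 4.4. The p53 and clock lists hold most of the red points, with medians of 0.79 and 0.61, the interferon list has a median of 0.66 with no gene past the threshold, and the tubule list has a median of -0.998.

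Clock genes, whose products form the daily feedback loop of CLOCK and BMAL1 against the PER and CRY repressors, were higher as a list. Of 19 tested, 7 rose and 0 fell, beside 1.36% and 0.895% of all genes, with a median of 0.61. Both IR+Shh samples lay above both NT samples for 13 of them, against 26.5% of all genes. Many of these genes carry E-boxes, the CACGTG sites of CLOCK and BMAL1, or D-boxes, the TTATGTAA sites of NFIL3 and of the PAR factors DBP and TEF. Promoter windows of 60 bases from RefSeq (GRCm38.p6), 5′ to 3′ on the strand of the gene, are shown for the members that hold a match, with the motif in capitals, to set the sites beside the levels.
Per1, E-box, chr11:69098756-69098815, plus strand: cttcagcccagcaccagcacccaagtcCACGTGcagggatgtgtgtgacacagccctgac
Tef, E-box, chr15:81802519-81802578, plus strand: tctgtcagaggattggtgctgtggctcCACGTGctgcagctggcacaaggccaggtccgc
Bhlhe41, E-box, chr6:145865541-145865600, minus strand: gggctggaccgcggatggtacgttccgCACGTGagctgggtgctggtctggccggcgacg
Ciart, E-box, chr3:95882312-95882371, minus strand: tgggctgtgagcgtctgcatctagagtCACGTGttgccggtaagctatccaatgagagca
Cry1, E-box, chr10:85185082-85185141, minus strand: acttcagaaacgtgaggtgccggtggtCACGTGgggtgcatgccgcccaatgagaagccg
Per3, D-box, chr4:151044837-151044896, minus strand: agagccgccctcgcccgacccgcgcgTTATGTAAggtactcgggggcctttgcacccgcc

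Both motifs were searched on both strands in the 300 bases from 250 before to 50 after each start, and the E-box reads the same on either strand. The E-box was found in 5 of the 16 clock genes with a promoter sequence, and in 7.15% of all 32851 promoters (8.09% of 27025 genes). The D-box was found in 1 of the 16, and in 0.938% of promoters (1.11% of genes). Of the 5 genes with an E-box, Per1, Tef, Bhlhe41 and Ciart rose and Cry1 did not pass (log2 0.05 ± 0.25, edgeR adjusted p = 0.941). A match describes these letters in this window and not binding.

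Per1, a repressor of the loop, was at 38.3 and 47.1 CPM in IR+Shh and 19.8 and 15.3 in NT (log2 1.28 ± 0.21, edgeR adjusted p = 0.0258). It was above both IR samples (22.2 and 26.5 CPM) and both IR+GFP samples (23.6 and 20.1). Per1 differed from IR by 0.81 ± 0.21 on the log2 scale (edgeR adjusted p = 0.735, DESeq2 adjusted p = 0.1). It differed from IR+GFP by 0.96 ± 0.21 (0.517 and 0.017). Per2 and Per3, its relatives, rose by 1.34 and 1.47, Ciart, a repressor, by 1.79, the PAR factor gene Tef by 0.81, the repressor gene Bhlhe41 by 0.77 and the REV-ERB gene Nr1d2 by 0.67. Dbp was at 1.59 (adjusted p = 0.0566), and Arntl, the BMAL1 gene, at -1.21 (adjusted p = 0.160). The list median was 0.47 in IR and 0.46 in IR+GFP, where 0 and 4 members rose. The calls in the list did not hold when a sample other than NT 1 was left out. That of Per1 did not hold without NT 1 either, where its log2 fold change was 1.11. The fold changes of the genes called stayed above 0. Per3, for one, was at 1.32 without NT 2-3, 1.52 without IR+Shh 1-3 and 1.42 without IR+Shh 2. The hour of collection is not in the labels, so time of day and group cannot be told apart.

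Interferon response genes lay above NT in IR+Shh and near or below NT in IR and IR+GFP, with no call by the main test. Of 34 interferon response genes 0 passed either way against NT, but 31 were above 0. Both IR+Shh samples lay above both NT samples for 23, against 26.5% of all genes. The median was 0.66, beside -0.35 in IR and -0.02 in IR+GFP. DESeq2 called 9 of them higher and limma-voom 0. Against IR, 14 were higher at an unadjusted p under 0.05 and 0 lower, beside 2.98% and 2.21% of all genes, and against IR+GFP 8 were higher and 0 lower, beside 3.41% and 2.70%. Irf7, the regulator that amplifies interferon production, was at 53.5 and 25.3 CPM in IR+Shh and 11.2 and 6.77 in NT (log2 2.13 ± 0.53, edgeR adjusted p = 0.0971). Ifi27l2a was at 180 and 60.5 CPM against 39.3 and 29.9 in NT (1.80, adjusted p = 0.127). In both genes IR+Shh 1-3 was well above IR+Shh 2, and the summed level of the list was 561 and 341 CPM in these samples against 244 and 216 in NT. All 13 interferon-inducible GTPases were above 0, with a median of 0.72 and 0 calls.

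B2m, the light chain of the class I major histocompatibility complex, rose 2.37-fold, from 259 and 271 CPM to 666 and 589 (log2 1.24 ± 0.26, edgeR adjusted p = 0.0448). It was at 254 and 234 CPM in IR, and the difference of IR+Shh from IR was 1.36 ± 0.26 (adjusted p = 0.580, DESeq2 adjusted p = 3.57e-06). IR+GFP spread from 262 to 485 CPM, and the difference from it was 0.75 ± 0.25 (edgeR adjusted p = 0.806, DESeq2 adjusted p = 0.168). The heavy chain gene H2-K1 was at 1112 and 986 CPM against 592 and 502 in NT (0.94, adjusted p = 0.113). B2m was the 1 member of 26 antigen presentation genes that rose, 0 fell, and the median was 0.17. B2m missed the threshold when any 1 of the 4 samples was left out (adjusted p from 0.0827 to 0.244).

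Markers of immune cells are given beside these genes. Of 28 macrophage markers 1 rose, Siglec1, a sialic acid receptor that interferon induces (3.59 and 4.10 CPM against 1.5 and 1.46, log2 1.34 ± 0.21, adjusted p = 0.0182). The summed level of the 29 macrophage markers listed was 556 and 643 CPM in IR+Shh, 572 and 608 in NT, 470 and 447 in IR and 408 and 581 in IR+GFP. All 11 T and NK cell markers tested were above 0, with a median of 0.72 and 0 calls. All 18 listed summed to 15.3 and 12.8 CPM in IR+Shh, 6.67 and 6.47 in NT, 5.16 and 3.19 in IR and 4.004 and 8.56 in IR+GFP. Gzma, a granule protease of these cells, was at 4.29 and 2.95 CPM against 0.953 and 0.577 (2.15, adjusted p = 0.115). The part of immune cell number in the interferon and B2m values was not tested. The macrophage growth factor gene Il34 rose by 0.70, from 11.9 and 12.7 CPM to 20.8 and 19.1, and the NF-kB subunit gene Relb by 1.60, from 2.97 and 2.70 CPM to 8.62 and 8.89. Their log2 differences from NT were 0.35 and 0.93 in IR and 0.66 and 1.35 in IR+GFP.

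Further single genes rose in IR+Shh with an IR mean near that of NT. Apod, Cyp26b1 and Heyl were chosen after their values were seen. Apod, a lipid carrier gene, was at 78.3 and 91.1 CPM against 18.3 and 30.3 in NT (log2 1.80 ± 0.29, edgeR adjusted p = 0.0293), and its difference from IR was 1.71 ± 0.29 (adjusted p = 0.580, DESeq2 adjusted p = 9.69e-08), and from IR+GFP 1.26 ± 0.29 (0.662 and 0.000796). Cyp26b1, which degrades retinoic acid, rose from 0.623 and 0.911 CPM to 2.86 and 3.51 and was 2.15 ± 0.40 above IR (adjusted p = 0.580, DESeq2 adjusted p = 0.0107). Its IR+GFP mean was 1.76 CPM, and IR+Shh was 0.85 ± 0.38 above it (edgeR adjusted p = 0.813), a difference that DESeq2 did not call either. Heyl, a Notch target gene of vessel wall cells, rose from 0.880 and 0.638 CPM to 2.30 and 3.80. It was 2.05 ± 0.41 above IR (edgeR adjusted p = 0.580, DESeq2 adjusted p = 0.1035) and 2.23 ± 0.42 above IR+GFP (0.439 and 0.0552). Gpx3, a secreted glutathione peroxidase gene named by the rule, rose from 4.62 and 4.55 CPM to 11.4 and 12.5. It was 1.18 ± 0.27 above IR (edgeR adjusted p = 0.735, DESeq2 adjusted p = 0.0593) and 1.35 ± 0.28 above IR+GFP (0.439 and 0.0148). Lgals3bp, a secreted glycoprotein gene that interferon induces, missed the threshold, with 75.2 and 44.2 CPM in IR+Shh and 21.5 and 16.8 in NT (1.64, adjusted p = 0.0502), and 1.92 ± 0.33 above IR (adjusted p = 0.580, DESeq2 adjusted p = 5.39e-09) and 1.28 ± 0.32 above IR+GFP (0.770 and 0.00128). None of the direct differences in this group of genes passed with the edgeR test. Against NT, the calls of Gpx3 and Heyl did not hold when any 1 of the 4 samples was left out. Those of Apod and Cyp26b1 held only without NT 1. The fold changes of these genes stayed above 0. Ccn2, a matrix protein gene, rose by 1.35, and the antioxidant regulator gene Nfe2l2 by 0.67, where IR was 0.63 and 0.56 above NT. The 18 endothelial markers had 0 calls and a median of 0.34, beside 0.26 in IR and 0.45 in IR+GFP.

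Blood and fat RNA also varied. The 5 red blood cell genes were all below NT, with summed levels of 30.8 and 3.17 CPM in IR+Shh and 137 and 103 in NT. The sums were also below NT in IR, at 52.1 and 36.1 CPM, and in IR+GFP, at 40.5 and 25.2. Alas2, the haem synthesis enzyme of red cells, fell by 1.28, and its log2 difference from NT was -0.79 in IR. The 8 adipocyte markers tested had 0 calls and a median of 1.63. All 9 listed summed to 7.15 CPM in IR+Shh 1-3 and 40.7 in IR+Shh 2, against 14.0 and 6.16 in NT and 41.7 and 4.93 in IR, so the samples of a group were far apart. Genes of oxidative phosphorylation (20 tested, median 0.09) and of senescence (22 tested, median 0.06) had 0 calls in either direction.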

How the data were processed

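Gene-level raw read counts, 1 table per library, were deposited by the authors. Per the submitters' processing notes, the tools were HTSeq 0.10.0, DESeq2, TopHat2 2.0.13 and Bowtie 0.12.2, and the builds mm10 and GRCm38. Per the labels' protocols, 1 ug of total RNA went into each library. Rows that name no gene were left out of library sizes, and reads aligned to several places were 2.97 to 4.61% in the NT and IR+Shh libraries. Symbols were matched to GENCODE vM21 for 37607 of 39179 genes (96.0%).

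Near-identical libraries were averaged, which left 10 samples from 15 libraries. All 10 were fitted together with edgeR 4.0.16 (R 4.3.3) by its quasi-likelihood test with TMM scaling and its default low-count filter, and p-values were adjusted by Benjamini-Hochberg over all genes. DESeq2 1.42.0 and limma-voom (limma 3.58.1) were alternatives. CPM uses the TMM factors, and the SE is the size of the log2 fold change divided by the square root of F. On simulated counts for IR+Shh against NT (14010 genes), 55.0% of 2-fold and 73.4% of 4-fold changes were recovered, and 9 of 133 calls were false. The members and the gene lists were chosen with earlier results of these data known. Named genes were Gli1, Shh, Nfil3 and Cdkn1a, the 12 largest rises and falls with at least 2 CPM and no overlap between libraries, up to 4 passing and 2 other members of each list, and 6 genes past and 6 not past the threshold among those that passed in IR against NT. Others were chosen after their values were seen: Ptch1, Gli2, Gli3, Sufu, Bax, Sesn2, Polk, Tnfrsf10b, Mdm2, Gdf15, Dcxr, Crisp3, Klk1, Klk1b8, Klk1b9, Mucl2, Slc12a2, Sar1b, Kdelr2, Gmds, Per2, Ciart, Nr1d2, Dbp, Arntl, Cry1, C1qb, Lgals3bp, Apod, Cyp26b1, Heyl, Exoc4 and the gene families gathered by symbol. Results for a few genes are not reported here.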

Additional observations from a re-analysis of the deposited data

How the results depend on the processing

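All 322 genes called in IR+Shh against NT kept their direction in each of the 18 alternatives where they had a fold change. They were selected by passing in these same samples, so a kept direction is not separate support. No named gene changed sign where it passed in the main fit or in that alternative. Some values that did not pass changed sign with 1 sample left out, and not all of these were near 0. Galnt12 (-3.68) was -4.63 without NT 1 and 0.05 without NT 2-3. Cfd (1.75) was 0.78 without NT 1 and -4.97 without IR+Shh 2. Among those near 0, Nfil3 (-0.07) was 0.18 without NT 2-3 and 0.16 without IR+Shh 1-3. Cry1 (0.05) was -0.07 without NT 2-3 and -0.30 without IR+Shh 2, and Perp (-0.03) was 0.03 without NT 1 and 0.05 without IR+Shh 2. The counts of higher and lower genes, 194 and 128, became 734 and 918 with no low-count filter, 413 and 415 with DESeq2, and 182 and 81 with NT and IR+Shh fitted alone. They became 438 and 317 with IR+GFP 3 and IR+Gli1 3 left aside, which stood apart in earlier results of these data. Total-count scaling gave 199 and 35. With 1 of the 4 samples left out they ran from 11 to 274 higher and from 0 to 553 lower, and a lone sample is then assumed to vary like the other groups. Beyond construction (fewer or more genes and samples), the cause was not tested.

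The 15 libraries taken as separate samples gave 2067 and 2375, and with the replicate number as a block 2025 and 2310. The numbers did not pair the libraries (correlations of deviations 0.034, 0.065 and -0.049), and near-identical libraries count there as replicates. Against IR, where the main test called 0, the counts were 1 with total-count scaling, 288 with no filter, 28 with DESeq2, 9 with those samples left aside, 654 with separate libraries and 499 with the block. Against IR+GFP they were 434 with no filter, 34 with DESeq2, 2 with those samples left aside, 538 with separate libraries and 433 with the block. The upper-quartile, DESeq2 size factor, limma-voom and other settings stayed within 1.5 times of the main counts. At 10 to 20 reads per library in NT, Gli1 and genes below it are limited by counting.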
